A study of Mus musculus with 7 samples.

Results

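Fibroblast growth factors (FGFs) are signalling proteins that bind FGF receptors on the cell surface with heparan sulfate as a cofactor and switch on the ERK kinase cascade inside the cell. In the blastocyst, the epiblast secretes FGF4, and neighbouring inner cells that receive the signal become primitive endoderm, the layer that later lines the yolk sac. Other ligands of the family are best known from later tissues: FGF5 from the post-implantation epiblast, FGF8 and FGF17 from the primitive streak and the brain, FGF3 and FGF10 from ear, limb and lung. Expression of 10 genes of the family, namely Fgf1, Fgf2, Fgf3, Fgf4, Fgf5, Fgf8, Fgf10, Fgf13, Fgf15 and Fgf17, was read from the 52636 genes of the count table by gene symbol, and all 10 were matched. All are counted here as ligand genes, although Fgf13 encodes a protein that stays inside the cell.

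RNA was sequenced from pools of 10 inner cell masses (ICMs, the inner cells of the blastocyst), labelled as epiblast of embryonic day 3.5. All 7 libraries came from mouse embryos of the genotype Sox2Cre;CRAFR26, which carry a tamoxifen-inducible cRAF construct that activates ERK and a Cre recombinase named for Sox2, a gene of the epiblast lineage. Embryos of both groups were flushed at day 2.5 and then spent 24 h in medium containing the FGF receptor inhibitor PD173074 (250 nM). The vehicle group (ethanol for 4 h, time label 0 h) held clone4_1, clone4_2 and clone8_1. The tamoxifen group (250 nM 4-hydroxytamoxifen for 4 h, time label 4 h) held clone4_1, clone4_2, clone8_1 and clone8_2. The names give 1 of the 2 clones of the construct, clone 4 or clone 8, and a number, and clone 8 has a single vehicle library, as the submitters set another vehicle sample aside at quality control. The labels do not say whether pools of a group came from separate litters or culture days, so p-values measure only the spread between these pools.

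Total counts ran from 22981498 to 42294719 per library. Markers of the ICM were present, with Pou5f1 at 484 to 592 CPM (counts relative to library size, TMM-scaled) over the 7 libraries. Markers of trophectoderm, the outer layer that immunosurgery removes, were present too: the summed level of its 10 markers was 8530 to 11200 CPM in vehicle and 6550 to 9530 CPM in tamoxifen libraries. The 10 naive epiblast markers summed to 2230 to 2640 and 2220 to 2690 CPM, and the 10 primitive endoderm markers to 809 to 1110 and 846 to 980 CPM. In such pools, fewer cells of a type and less RNA per cell cannot be told apart.

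Fgf3, Fgf4 and Fgf10 took nearly all ligand counts, so sequence next to their starts is shown first. Fgf3, Fgf4 and Fgf15 lie next to each other on the plus strand of chromosome 7 (GRCm38), within 62871 bp: Fgf3 (ENSMUSG00000031074) at 144838083 to 144844436, Fgf4 (ENSMUSG00000050917) at 144847367 to 144865243 and Fgf15 (ENSMUSG00000031073) at 144896531 to 144900953. The gap from Fgf3 to Fgf4 is 2930 bp and the gap from Fgf4 to Fgf15 is 31287 bp. Fgf10 (ENSMUSG00000021732) lies on chromosome 13, 118669791 to 118792115, plus strand. RefSeq promoter windows were matched for 6 of the 10 genes. The 250 bases before the RefSeq start of Fgf4 (chr7:144861136-144861385), Fgf3 (chr7:144838362-144838611) and Fgf10 (chr13:118714449-118714698), all plus strand, lie just before a RefSeq start that is downstream of the outermost GENCODE start given above. Short promoter motifs, searched on both strands, are in capitals. The GC box, a site type of many promoters without a TATA box, was searched as the letters GGGCGG. The box bound by the factor NF-Y was searched under its usual name, CCAAT, which is also its letters. For the TATA box, where the general transcription machinery can dock, the letters searched were TATAAA. The windows read:
Fgf4: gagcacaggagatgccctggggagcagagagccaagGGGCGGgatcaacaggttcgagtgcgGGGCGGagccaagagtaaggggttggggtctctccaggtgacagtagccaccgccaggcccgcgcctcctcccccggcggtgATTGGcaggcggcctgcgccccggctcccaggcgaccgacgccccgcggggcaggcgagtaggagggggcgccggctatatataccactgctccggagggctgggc
Fgf3: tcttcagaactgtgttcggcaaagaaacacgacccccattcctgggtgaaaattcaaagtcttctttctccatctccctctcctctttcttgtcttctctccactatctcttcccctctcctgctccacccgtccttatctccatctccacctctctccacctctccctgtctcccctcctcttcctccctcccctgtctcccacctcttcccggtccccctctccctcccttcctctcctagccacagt
Fgf10: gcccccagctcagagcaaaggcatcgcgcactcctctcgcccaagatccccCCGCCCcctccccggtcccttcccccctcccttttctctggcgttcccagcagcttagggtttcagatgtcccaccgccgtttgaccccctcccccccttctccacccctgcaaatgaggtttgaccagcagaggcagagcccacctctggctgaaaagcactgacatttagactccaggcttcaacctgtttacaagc

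The Fgf4 window held 2 GC boxes and 1 CCAAT box, the Fgf10 window 1 GC box, and the Fgf3 window none of these motifs. The exact letters TATAAA were in none of the windows shown. The Fgf4 window has a run of alternating T and A bases near its end, and TATA-like letters other than TATAAA were not searched. Among 32851 RefSeq windows of the same length, 32.7% held a GC box, 33.8% a CCAAT box and 12.4% a TATA box. GC content was 71.2% for Fgf4, 55.2% for Fgf3 and 61.2% for Fgf10, against a median of 52.4%. The ratio of observed to expected CpG was 0.675, 0.407 and 0.401, against a median of 0.373. The neighbours Fgf3 and Fgf4 thus differ in both measures. Neither measure was particular to genes with many counts. The Fgf2 window had a GC content of 62.4% and a CpG ratio of 0.858, the Fgf5 window 70.8% and 0.767. Each held 1 GC box. The Fgf13 windows ran from 40.4% to 74.8% and from 0.154 to 0.948.

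Fgf4 is known for an enhancer in its last exon, beyond the stop codon, where SOX2 and OCT4 (the product of Pou5f1) bind side by side. The longest transcript of each gene was searched on both strands for the enhancer's SOX-type and octamer-type letters, with 3 free bases between them. The letters were chosen from knowledge of that enhancer, so a match in Fgf4 was fixed in advance and shows no specificity. Sequence outside transcripts was not searched. The search found 1 match among 21951 protein-coding genes (0.00456%), in Fgf4. It lies 1447 bases after the stop codon (chr7:144864388-144864417, plus strand), and the letters searched are in capitals:
Fgf4 element: aaaactCTTTGTTtggATGCTAATgggata

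Both factors of that element were transcribed in every library. For Pou5f1 the vehicle level was 571 ± 22.0 CPM (SD, n = 3) and the tamoxifen level 523 ± 31.2 CPM (SD, n = 4). For Sox2 they were 14.5 ± 2.76 CPM (SD, n = 3) and 19.9 ± 4.55 CPM (SD, n = 4). Neither binding nor activity of the element was measured.

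Levels of different genes were compared as CPM per kb of the longest transcript. In vehicle, Fgf4 was highest at 6.31 ± 3.53 CPM per kb (SD, n = 3), with 6.19 in clone4_1, 9.90 in clone4_2 and 2.84 in clone8_1. Fgf10 followed at 3.21 ± 1.38 CPM per kb (SD, n = 3), with 2.18, 4.77 and 2.67 in the same order. The ranges of these neighbours overlapped, although Fgf4 exceeded Fgf10 within each library, by 2.84, 2.08 and 1.06 times. Fgf3 came next at 1.18 ± 0.192 CPM per kb (SD, n = 3), its highest library (1.40) below the lowest of Fgf10. Fgf13 (0.395 ± 0.0332 CPM per kb, SD, n = 3) and Fgf5 (0.151 ± 0.0625 CPM per kb, SD, n = 3) lay lower, and neither range overlapped that of the gene ranked before it. Against a median of 3.12 CPM per kb over the 16248 genes that passed the expression filter, 60.9% of genes lay below Fgf4, 50.3% below Fgf10 and 35.6% below Fgf3. The epiblast ligand was thus a transcript of middling level, and Fgf10 was close to the median gene.

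The other 5 genes were near the limit of detection and did not pass the filter. A floor of 3 counts corresponds to 0.071 to 0.129 CPM per library, for counting error only. Fgf8, a ligand of the primitive streak, had 1 to 7 counts per library and exceeded 3 counts in 2 of 7 libraries. Fgf15, the mouse counterpart of human FGF19 and a hormone of the gut in later life, had 1 to 7 counts and exceeded the floor in 3 libraries. Fgf1, which is exported without a classical signal peptide, had 20 counts in vehicle clone4_2, 19 in tamoxifen clone4_1 and 0 to 3 in the other libraries. Fgf17, of the Fgf8 subfamily, had 13 counts in tamoxifen clone8_1 and 0 or 1 elsewhere. Fgf2, the ligand often added to stem cell media, had 0 counts in the 3 vehicle libraries and 0, 1, 0 and 3 in tamoxifen clone4_1, clone4_2, clone8_1 and clone8_2, so it was not detectable above the floor at this depth in either group. Fgf15 stood at 1 to 7 counts 31287 bp from Fgf4, whose counts were 353 to 1431.

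The order of the low genes depends on the transcript length used. With the median length of the basic transcripts in place of the longest, Fgf1 moved from 0.0583 to 0.238 CPM per kb in vehicle and Fgf5 from 0.151 to 0.244, while Fgf3, Fgf4 and Fgf10 have 1 basic transcript each and kept their values. Exons of Fgf10 overlap the antisense gene Gm16263 by 123 bp, and that gene had 0 to 10 counts against 361 to 693 for Fgf10. Exons of Fgf2 overlap Nudt6 on the other strand by 640 bp, and those of Fgf15 overlap Gm26793 by 761 bp. The strand setting of the counting is not given in the sources used here, so reads in these stretches cannot be told apart by strand.

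Fgf3, Fgf4 and Fgf10 together took 92.6% to 98.8% of the ligand counts of a library. On the per kb scale Fgf4 alone made up 59.6%, 59.7% and 39.1% of the 10 genes in vehicle clone4_1, clone4_2 and clone8_1. Its share was 60.5%, 61.7%, 67.4% and 58.4% in tamoxifen clone4_1, clone4_2, clone8_1 and clone8_2. Vehicle clone8_1 is the library that stands apart, with Fgf10 at 36.8% of the summed level, close to Fgf4. That sum was 7.26 CPM per kb in vehicle clone8_1, 10.4 and 16.6 in the other vehicle libraries, and 13.1 to 25.3 in the tamoxifen libraries.

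**Figure D1:**
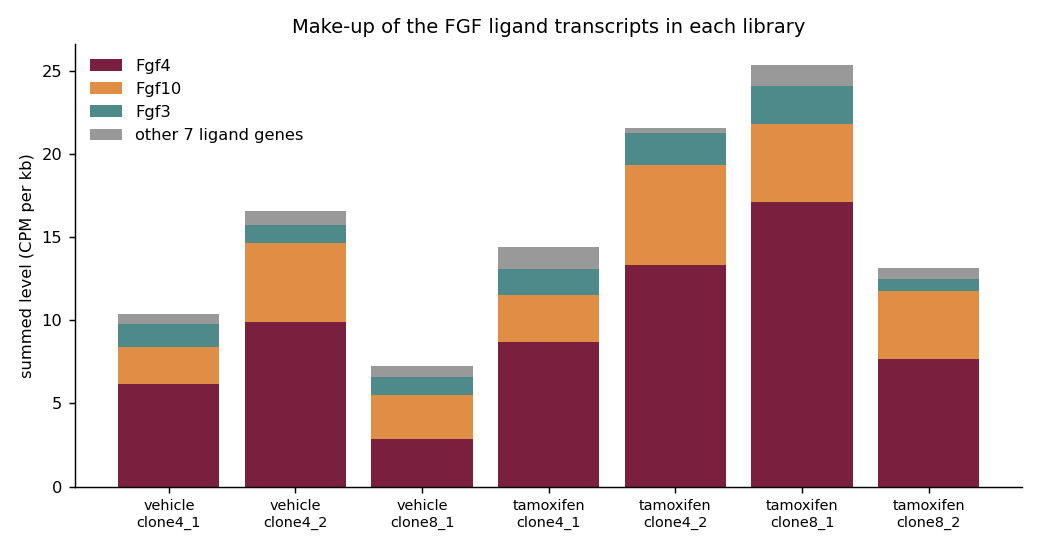
Stacked bars give the level per library, in CPM per kb of longest transcript, of Fgf4, Fgf10, Fgf3 and the other 7 ligand genes summed. Fgf4 forms the largest segment in all 7 libraries, and the shortest bar, at 7.26 CPM per kb, is vehicle clone8_1.

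The response to 4 h of tamoxifen was tested across all 16248 genes that passed the filter, of which 5 were ligand genes. No ligand gene was called at an adjusted p under 0.05 (quasi-likelihood test of edgeR, Benjamini-Hochberg), against 0.0% of all genes tested. With DESeq2, 4 genes were called and no ligand gene was among them. At an unadjusted p under 0.05 there was no ligand gene with edgeR, where 5.97% of all genes had such a p (2.69% higher and 3.28% lower in tamoxifen), and 1, Fgf4, with DESeq2, where 7.5% of all genes had one. The groups overlapped for all 5, whereas they did not overlap for 8.45% of genes tested. All 5 estimates were above 0, as were 51.7% of all estimates, and their median log2 fold change was 0.46, against 0.019 for all genes tested.

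Fgf4, the epiblast ligand, had the largest estimate among the 5. It stood at 18.8, 30.0 and 8.60 CPM in vehicle clone4_1, clone4_2 and clone8_1, and at 26.4, 40.4, 51.7 and 23.2 CPM in tamoxifen clone4_1, clone4_2, clone8_1 and clone8_2. The 2 highest values were tamoxifen libraries and the 2 lowest were vehicle libraries, but vehicle clone4_2 lay above 2 of the 4 tamoxifen libraries. The vehicle mean was 19.1 ± 10.7 CPM (SD, n = 3) and the tamoxifen mean 35.4 ± 13.2 CPM (SD, n = 4). On the log2 scale the fitted change was 0.89 ± 0.42 (SE), its 95% interval reaching from -0.04 to 1.82. Its p was 0.0582 before and 0.794 after adjustment (edgeR, Benjamini-Hochberg). Of all genes tested, 7.55% had an estimate at least as high.

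The estimate for Fgf4 was smaller without the libraries numbered clone8_1. Vehicle clone8_1 was the lowest and tamoxifen clone8_1 the highest of the 7, at -1.61 and 0.97 (log2) from the median library. The same deviation was taken for 7322 protein-coding genes with a longest transcript of 2000 to under 5000 nt, the length class of Fgf4. Its medians were 0.019 and -0.043 in the same order. The scaling of the libraries holds such medians close to 0, so they do not show the quality or spread of these libraries. Without vehicle clone8_1 the log2 fold change was 0.53 ± 0.35 (SE), and with both left out it was 0.29 ± 0.31 (SE). Without vehicle clone4_2, the highest of its group, it was 1.37 ± 0.43 (SE). Within clone 4, where there were 2 libraries per condition, it was 0.45 ± 0.32 (SE; unadjusted p = 0.207, edgeR). The estimate was above 0 in each of the 15 alternatives run, from 0.29 to 1.37, and an unadjusted p under 0.05 was reached in 6 of them. The adjusted p was above 0.05 in all 15.

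**Figure D2:**
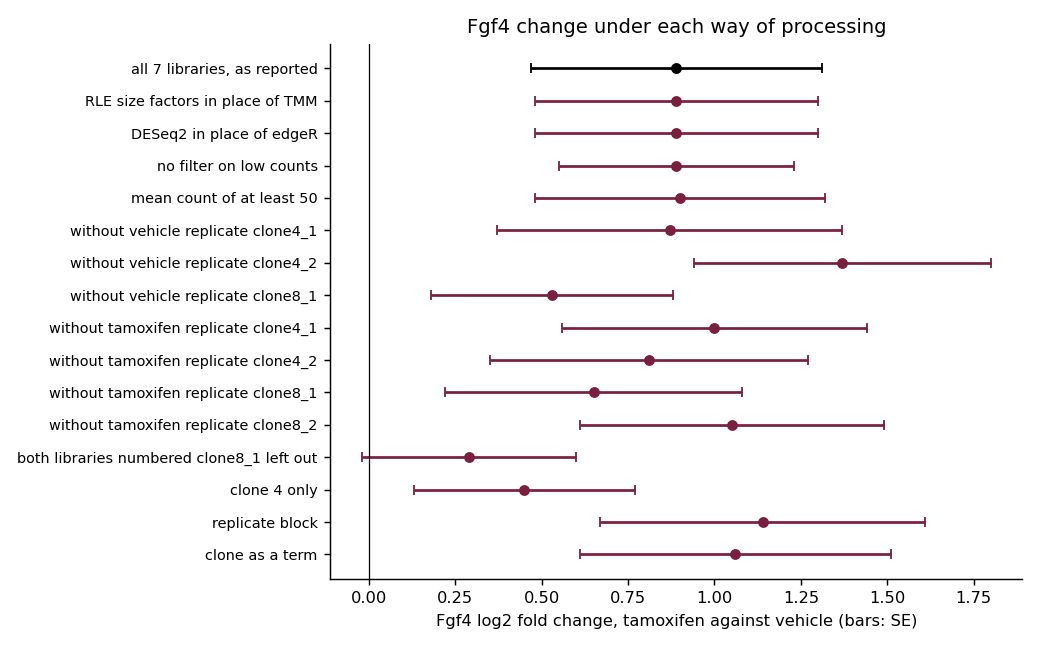
Points give the log2 fold change of Fgf4 (tamoxifen against vehicle) from all 7 libraries (black) and from each of the 15 alternatives (red), with bars for the SE. All points lie to the right of 0, and the lowest, 0.29, is the fit without both libraries numbered clone8_1.

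Fgf10, which signals through an epithelial form of FGFR2 in later organs, had a smaller estimate. It stood at 8.96, 19.6 and 11.0 CPM in vehicle clone4_1, clone4_2 and clone8_1, and at 11.5, 24.9, 19.2 and 16.8 CPM in tamoxifen clone4_1, clone4_2, clone8_1 and clone8_2. In both groups clone4_2 was the highest library and clone4_1 the lowest, and the groups overlapped. The log2 fold change was 0.46 ± 0.34 (SE), with a 95% interval from -0.31 to 1.22 (unadjusted p = 0.212, adjusted p = 0.803, edgeR with Benjamini-Hochberg adjustment). Leaving out vehicle clone4_2 raised it to 0.86 (unadjusted p = 0.034, edgeR, not called after adjustment) and leaving out vehicle clone4_1 lowered it to 0.23.

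Fgf3, which shares receptors with Fgf10, stood at 3.23, 2.49 and 2.44 CPM in vehicle clone4_1, clone4_2 and clone8_1. In tamoxifen clone4_1, clone4_2, clone8_1 and clone8_2 it stood at 3.55, 4.40, 5.38 and 1.70 CPM. The 3 highest values were tamoxifen libraries, and so was the lowest, clone8_2. The log2 fold change was 0.46 ± 0.45 (SE), with a 95% interval from -0.53 to 1.46 (unadjusted p = 0.325, adjusted p = 0.838, edgeR with Benjamini-Hochberg adjustment). Without tamoxifen clone8_2 the log2 fold change was 0.71, without tamoxifen clone8_1 it was 0.24, and without both libraries numbered clone8_1 it was 0.16.

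Fgf13 encodes an FGF homologous factor, a protein that stays inside the cell and binds sodium channels in neurons. It stood at 1.07, 0.997 and 0.901 CPM in vehicle clone4_1, clone4_2 and clone8_1, a narrow range. In tamoxifen clone4_1, clone4_2, clone8_1 and clone8_2 it stood at 2.08, 0.172, 1.30 and 1.04 CPM, from 88 counts in clone4_1 to 4 in clone4_2. The tamoxifen libraries thus enclosed the vehicle range on both sides. The log2 fold change was 0.23 ± 0.74 (SE; adjusted p = 0.953, edgeR with Benjamini-Hochberg adjustment), and it was -0.25 without tamoxifen clone4_1.

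Fgf5, the marker of the formative and post-implantation epiblast, was low in both groups. It stood at 0.223, 0.374 and 0.536 CPM (9, 12 and 22 counts) in vehicle clone4_1, clone4_2 and clone8_1, and at 0.403, 0.345, 0.686 and 0.219 CPM (17, 8, 19 and 9 counts) in tamoxifen clone4_1, clone4_2, clone8_1 and clone8_2. The groups covered nearly the same range, and both clone8_1 libraries were the highest of their group. The log2 fold change was 0.12 ± 0.79 (SE; adjusted p = 0.98, edgeR with Benjamini-Hochberg adjustment), with a 95% interval from -1.64 to 1.88 that does not set a narrow limit. It was -0.23 without tamoxifen clone8_1 and -0.16 without vehicle clone4_1.

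**Figure D3:**
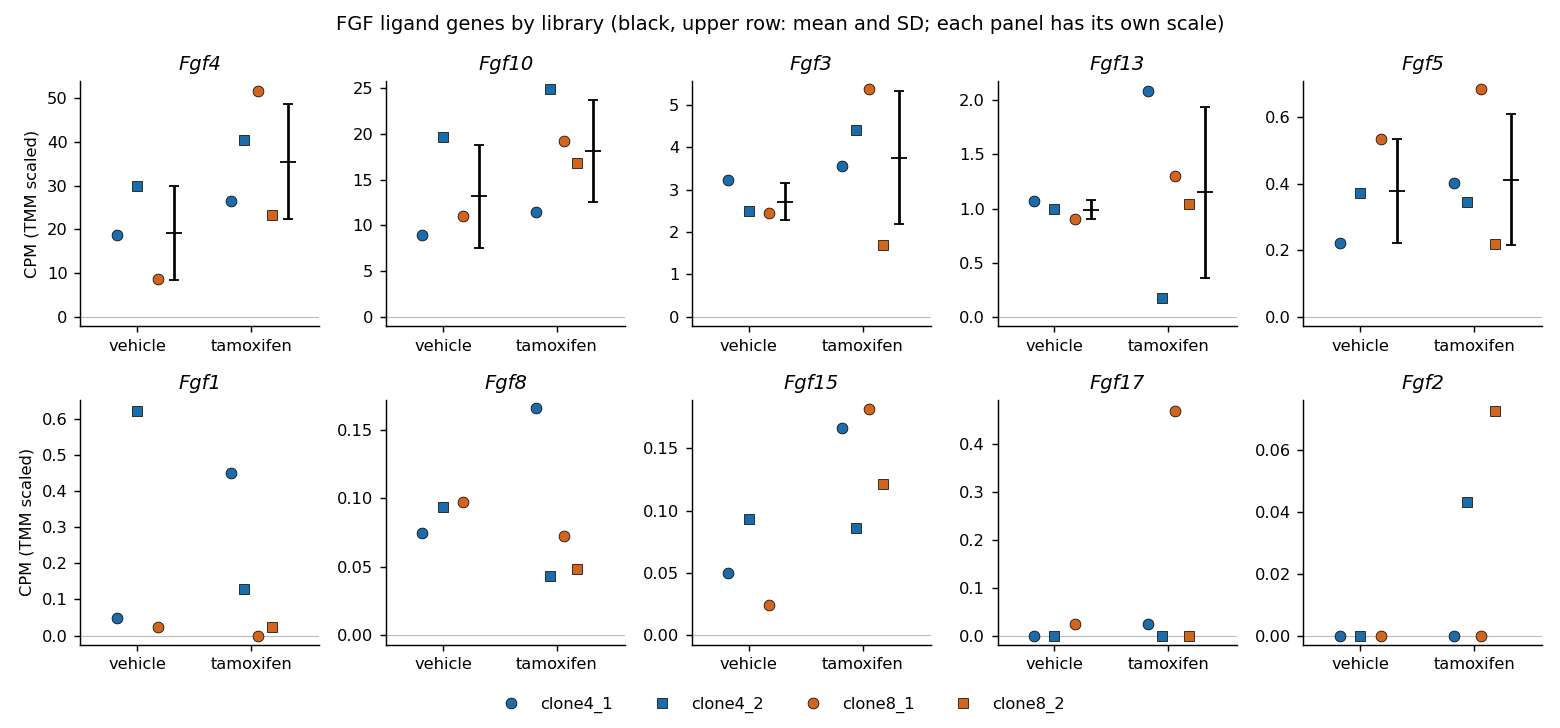
Each panel gives 1 ligand gene in CPM, with vehicle on the left and tamoxifen on the right; colour marks the clone and shape the number, and the black marks of the upper row are means with SD (n = 3 and n = 4). The groups overlap in all 10 panels, and the lower row holds the 5 genes at or near the floor of 3 counts.

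For the 5 genes that failed the filter, a fit without a filter gave no call, with adjusted p from 0.721 to 0.993 (edgeR with Benjamini-Hochberg adjustment). Fgf15 had 2, 3 and 1 counts in vehicle and 7, 2, 5 and 5 in tamoxifen libraries, and its estimate of 1.27 ± 1.55 (SE, log2) carries an error larger than itself. The estimates for Fgf2 and Fgf17 rest on 4 and 15 counts in all libraries together and are not given as folds. For Fgf1 and Fgf8 they were -0.58 ± 1.51 (SE) and -0.08 ± 1.55 (SE).

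No difference between the clones was called for the 5 ligand genes in a fit with condition and clone (0 called by edgeR, against 0.0% of all genes, and 0 at an unadjusted p under 0.05, against 3.13%; no ligand gene called with DESeq2). The estimates for clone 8 against clone 4 ran from -0.44 ± 0.45 (SE) for Fgf4 to 0.50 ± 0.83 (SE) for Fgf5. Without vehicle clone8_1 the estimate for Fgf4 was 0.17. The log2 ratio of tamoxifen to vehicle means for Fgf4 was 0.46 in clone 4 and 2.12 in clone 8, the latter against a single vehicle library, and this difference was not tested.

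Fgf4 varied over the 7 libraries in a way that other genes shared. The 5 genes with the highest Pearson correlation of log2 CPM with it were Magi2 (r = 0.989), the lincRNA Platr10 (0.986), the antisense gene 3110045C21Rik (0.985), Epg5 (0.983) and Fbxo2 (0.980), over n = 7 libraries that share condition and depth with Fgf4. As 208 genes reached 0.9, the top places separate little. The same measure was 0.716 for Fgf10, 0.61 for Fgf3, 0.144 for Fgf5 and -0.179 for Fgf13, as a description.

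Other FGF genes were little detected. Of 12 further FGF genes, Fgf6 and Fgf21 had 0 counts in all libraries, 6 had at most 3 counts in each library (those 2 included), and Fgf11, a homologous factor like Fgf13, was the only one to pass the filter. Fgf11 had 19, 0 and 2 counts in vehicle clone4_1, clone4_2 and clone8_1, and 62, 27, 0 and 14 in tamoxifen clone4_1, clone4_2, clone8_1 and clone8_2. Its log2 fold change was 2.06 ± 1.54 (SE; adjusted p = 0.803, edgeR with Benjamini-Hochberg adjustment). Fgf9, which shares its subfamily with Fgf16 and Fgf20, had 1 count over all 7 libraries.

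Of 14 receptors, co-receptors and adaptors, 13 were tested and 0 were called, with 6 estimates above and 7 below 0 and a median log2 fold change of -0.07. Fgfr1, the receptor found on both ICM lineages, averaged 44.6 ± 2.46 CPM (SD, n = 3) without and 58.7 ± 8.40 CPM (SD, n = 4) with tamoxifen, and the groups did not overlap. It had an estimate of 0.40 ± 0.17 (SE, log2; unadjusted p = 0.0441 and adjusted p = 0.794 by edgeR). Fgfr2, a receptor of primitive endoderm and trophectoderm, had 45.7 ± 6.88 and 43.6 ± 11.3 CPM (SD, n = 3 and n = 4) and an estimate of -0.07 ± 0.24 (SE). Gab1, an adaptor, had 105 ± 9.27 and 79.4 ± 14.0 CPM (SD, n = 3 and n = 4) and did not overlap between groups (-0.40 ± 0.18, SE, with adjusted p = 0.794 by edgeR). Plcg1, another gene of this list, did not overlap either (0.22 ± 0.2, SE). Groups without overlap were found for 8.45% of all genes tested. Fgfr1 and Gab1 had the smallest p of this list by edgeR, a choice that favours groups without overlap.

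Heparan sulfate is the cofactor of secreted FGFs, and all 14 genes of its chains, carriers and trimming enzymes were tested. None was called, and 9 estimates were above 0, against 51.7% of all estimates. At an unadjusted p under 0.05 there were 2 above and 1 below, against 2.69% and 3.28% of all genes tested. Sulf2, an enzyme that removes sulfate groups from the chains, ranged from 22.4 to 31.2 CPM in vehicle and from 31.4 to 57.0 CPM in tamoxifen libraries. The groups nearly touched but did not overlap (log2 estimate 0.83 ± 0.24, SE; unadjusted p = 0.00662 and adjusted p = 0.794 by edgeR). Gpc4, a glypican that carries the chains, stood at 2.06, 2.83 and 3.29 CPM in vehicle and 9.95, 10.7, 3.76 and 4.52 CPM in tamoxifen libraries in the same order. The estimate was 1.40 ± 0.46 (SE, log2, with unadjusted p = 0.0115 and adjusted p = 0.794 by edgeR), with no overlap, and the 2 clone 4 libraries were the highest. Groups also did not overlap for Hs6st1, which was higher (0.67 ± 0.3, SE), and for Glce, which was lower (-0.45 ± 0.2, SE). Of all genes tested, 8.45% had groups without overlap, and Sulf2 and Gpc4 were named for the smallest p of this list.

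Among 10 feedback and target genes of FGF and ERK signalling, 8 estimates were above 0, against 51.7% of all estimates, and 0 were called. The median log2 fold change was 0.48, against 0.019 for all genes tested. Their summed level was 256 to 272 CPM in vehicle and 359 to 387 CPM in tamoxifen libraries. Such a sum rests mostly on the genes of highest level, and its difference was not tested. At an unadjusted p under 0.05 in edgeR there were 2 above and 0 below, against 2.69% and 3.28% of all genes tested. Groups without overlap were found for 8.45% of all genes tested. Spry2, an inhibitor of the pathway, stood at 64.8 ± 18.6 CPM (SD, n = 3) and 118 ± 10.2 CPM (SD, n = 4) without overlap (log2 estimate 0.86 ± 0.21, SE; unadjusted p = 0.00229 and adjusted p = 0.794 by edgeR). Spred1, a related inhibitor, stood at 1.01 ± 0.361 and 2.43 ± 0.880 CPM (SD, n = 3 and n = 4), and the groups overlapped (log2 estimate 1.27 ± 0.54, SE; unadjusted p = 0.0419 and adjusted p = 0.794 by edgeR). Etv4, an ETS factor, had 4, 12 and 8 counts in vehicle and 56, 2, 49 and 34 counts in tamoxifen libraries, with a log2 fold change of 2.17 ± 1.01 (SE; adjusted p = 0.794, edgeR). Etv5, its relative, had 0.47 ± 0.22 (SE), Spry4 0.48 ± 0.39 (SE) and the phosphatase gene Dusp6 -0.17 ± 0.26 (SE).

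**Figure D4:**
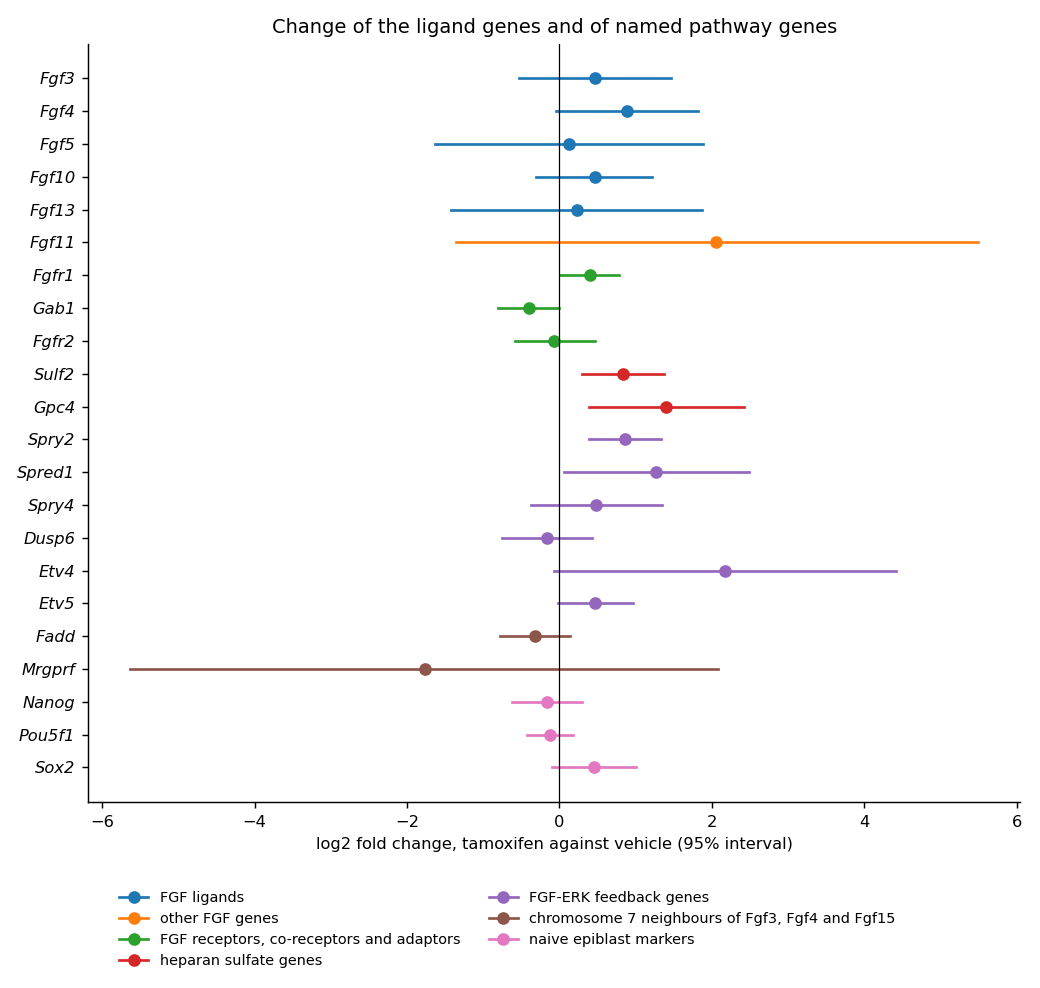
Points give the log2 fold change, tamoxifen against vehicle, with its 95% interval for the 5 tested ligand genes and for named genes of each list, coloured by list. The interval of Fgf4 runs from -0.04 to 1.82, and among the other genes drawn the intervals of Fgfr1, Sulf2, Gpc4, Spry2 and Spred1 lie above 0 before adjustment over all genes.

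The genes around the Fgf3, Fgf4 and Fgf15 cluster were read from the same fit. Of 6 neighbours on chromosome 7 (Fadd, Ano1, Lto1, Ccnd1, Tpcn2 and Mrgprf) 2 estimates were above 0 and 4 below, none with an unadjusted p under 0.05 or called in edgeR, and the median log2 fold change was -0.23. Lto1, 14146 bp beyond Fgf15, averaged 28.9 ± 8.25 CPM (SD, n = 3) without and 26.4 ± 3.06 CPM (SD, n = 4) with tamoxifen. Fadd, an adaptor of death receptors, had 23.3 ± 1.51 and 18.6 ± 3.06 CPM (SD, n = 3 and n = 4), an estimate of -0.32 ± 0.21 (SE). Whether Fgf4 differed from its neighbours in its change was not tested.

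Cell type markers are given beside the ligand values. All 10 trophectoderm markers had estimates below 0 (median log2 fold change -0.33, 0 called, 3 with an unadjusted p under 0.05 in edgeR, where 3.28% of all genes had one and were lower), with the summed ranges given above. At the same threshold there were 2 primitive endoderm, 1 naive epiblast and 1 primitive streak marker above 0 and 1 formative marker below 0. Of the 10 naive epiblast markers, which the cells that make FGF4 express, 7 were above 0 and 3 below (median 0.20, 0 called), with Nanog at -0.16 ± 0.21 (SE) and Sox2 at 0.45 ± 0.25 (SE). Of 9 tested primitive endoderm markers 6 were above 0 (median 0.49, 0 called). Of 10 primitive streak and mesoderm markers, the tissue of Fgf8 and Fgf17, 6 were tested, with 2 above 0 and 4 below (median -0.21, 0 called) and summed levels of 20.6 to 29.2 CPM in vehicle and 26.8 to 31.0 CPM in tamoxifen libraries. Of 9 formative epiblast markers, the state that Fgf5 marks, 6 were tested, with 3 above and 3 below 0 (median -0.10, 0 called). Of 8 blood, endothelial and fibroblast markers 3 were tested, all above 0 (median 1.14) and 0 called, with summed levels of 87.3 to 178 CPM in vehicle and 84.3 to 236 CPM in tamoxifen libraries. Within that list the blood markers Ptprc and Hbb-bs had 0 counts in all libraries. Which of the other genes carried the sum is not given here, so the sum does not show that such cells were present. The part of the cell make-up of the pools in the ligand values was not tested.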

How the data were processed

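The authors deposited 1 table of raw counts per Ensembl gene, with 1 column for each of the 7 libraries; replicates were not pooled. The submitters' processing notes name bcl2fastq 2.19.1, STAR 2.5.3a and the build mm10; the counting program, annotation, strand and duplicate handling are not given in the sources used here. Libraries were amplified from 2 ng of RNA without stated molecular identifiers, so floors cover counting error only. Of 52636 gene IDs, 52403 matched GENCODE M21 (GRCm38), the source of symbols, coordinates and lengths; promoter sequences are RefSeq GRCm38.p6. The test was that of edgeR 4.0.16 under R 4.3.3 (TMM factors, edgeR's expression filter by group, quasi-likelihood test, condition as the only term, Benjamini-Hochberg adjustment over all genes; biological coefficient of variation 0.456). DESeq2 1.42.0 was an alternative. Log2 CPM used a prior count of 2. The procedure was tested on simulated counts with changes far larger than the estimate for Fgf4, so that test does not measure power for changes of that size.

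The ligand genes and the lists were chosen with earlier results of these data known. The text names the 10 ligand genes, Fgfr1, Fgfr2, Spry2, Spry4, Dusp6, Etv4, Etv5, Pou5f1, Sox2, Nanog, the 2 genes with the smallest p of each pathway list, and the 5 genes most like Fgf4. Other genes are named for their position, for a count of 0, for a count pattern or for groups without overlap. These were chosen after their values were seen. Alternatives were other scaling, tool and filters, each library left out, both clone8_1 libraries left out, clone 4 alone, clone as a term and the replicate number as a block.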

Additional observations from a re-analysis of the deposited data

Results flagged for a closer look

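Among 26 genes screened in the 4 tamoxifen libraries, 2 had a single library far from the others. Chance gives about 1 in 20 groups where values are normally distributed, which low counts are not. A gene entered the screen with more than 3 counts in any tamoxifen library, so Fgf17 entered only through the library flagged. Fgf17 was at 0.469 CPM in tamoxifen clone8_1, from 13 counts, and at 0 or 1 count in the other tamoxifen libraries. Mrgprf, a neighbour of the Fgf4 locus, was at 0.991 CPM in tamoxifen clone4_2, from 23 counts, and at 0, 0 and 4 counts in the others. In vehicle clone4_1, clone4_2 and clone8_1 it had 23, 69 and 0 counts (0.571, 2.15 and 0 CPM). The flagged value thus lay inside the vehicle range, and Mrgprf was uneven in both groups. Spry4 moved in opposite directions in the clones: the log2 ratio of tamoxifen to vehicle means was 1.12 in clone 4, where both tamoxifen libraries exceeded both vehicle libraries, and -0.37 in clone 8, where both lay below the single vehicle library. That difference was not tested.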

How the results depend on the processing

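Over all genes, 0 were called by edgeR, 4 by DESeq2 and 2 without both clone8_1 libraries; no ligand gene was called in any alternative run. For clone 8 against clone 4 the counts were 0 by edgeR, 13 by DESeq2 and 28 without the filter. With each library left out in turn, the log2 fold change for tamoxifen ranged from -0.23 to 0.45 for Fgf5 and from -0.25 to 0.57 for Fgf13, both including a change of sign. The clone estimate ranged from -0.70 to 0.12 for Fgf3, from -0.98 to 0.17 for Fgf4, from -0.40 to 0.15 for Fgf10 and from -0.50 to 1.18 for Fgf13, and Fgf5 was at -0.76 without both clone8_1 libraries. These estimates rest on fewer samples, and the cause of each change of sign was not tested. Same-numbered libraries did not deviate together (r = 0.00775, 0.0206 and -0.0683 for clone4_1, clone4_2 and clone8_1), and vehicle clone4_1 correlated best with tamoxifen clone8_1, so the numbers were not taken to pair the libraries. With the replicate number as a block 0 genes were called, Fgf4 was at 1.14 and Fgf13 at -0.17; with clone as a term Fgf4 was at 1.06. Leaving out 1 vehicle library moved the vehicle level of Fgf4 between 4.51 and 8.04 CPM per kb. The median transcript length moved Fgf5 to 0.244 and Fgf13 to 0.442 CPM per kb. Depth limits Fgf2, Fgf8, Fgf15 and Fgf17, which had few counts in each library.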

Other observations

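Some FGF genes outside the 10 ligand genes had counts in some libraries and 0 in others. Fgf7 had 18 counts in vehicle clone4_1, 32 in vehicle clone8_1, 7 in tamoxifen clone8_2 and 0 or 1 elsewhere. Fgf23 had 8 counts in vehicle clone4_2 and 0 in the other libraries, and Fgf12 had 8 counts in tamoxifen clone4_1 and 0 in the others. Fgf20 had 4 counts, all in tamoxifen clone8_2. Fgf22 had 5 counts in vehicle clone4_1, 5 in tamoxifen clone4_1, 4 in tamoxifen clone4_2, 1 in tamoxifen clone8_2 and 0 elsewhere.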
